A study of Mus musculus with 9 samples.

Results

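The known targets of the let-7 microRNA family were described in a mouse kidney cell line in which Drosha had been knocked down. The members were a list of 32 gene symbols, and every row of the expression table that carried one of these symbols was taken. They matched 33 of the 55357 rows, because Hmga1 labels 2 of them. The 5 libraries were made from poly(A) RNA of SV40-MES-13 cells, a line transformed with SV40 early genes and labelled as mesangial, the contractile support cell of the glomerulus. The control was an empty lentiviral vector (EV, 2 libraries, genotype label WT). The other libraries carried the Drosha shRNA sh5 (1 library) or sh7 (2 libraries), cloned in pLL 3.7. The library titles and genotype labels call these cells Drosha KO, whereas the protocol describes shRNA knockdown. Whether infected cells were used as a pool or as clones is not given in the sources used here. Another 4 samples are small RNA libraries and were not analysed here, so the amount of let-7 in these cells is not known from the values below.

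Drosha and its RNA-binding partner Dgcr8 cut primary microRNA transcripts in the nucleus, and Dicer trims the product to the mature strand that is loaded into Argonaute. A let-7 strand pairs through its seed with sites in messenger RNAs, most often in the 3′ untranslated region, and lowers the stability and translation of the message. The family is known for holding down growth and embryonic genes in differentiated tissue, among them Hmga2, Lin28b, the Igf2bp genes, Myc and Ras genes. Lin28 proteins in turn block the maturation of let-7. The sequences that define the family in mouse are shown here because the shared seed, bases 2 to 8 counted from the 5′ end and printed in capitals, is common to the strands printed.
mmu-let-7a-5p: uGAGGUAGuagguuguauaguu
mmu-let-7b-5p: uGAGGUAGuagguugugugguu
mmu-let-7c-5p: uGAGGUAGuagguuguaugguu
mmu-let-7d-5p: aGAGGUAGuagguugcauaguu
mmu-let-7e-5p: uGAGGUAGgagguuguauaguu
mmu-let-7f-5p: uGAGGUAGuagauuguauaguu
mmu-let-7g-5p: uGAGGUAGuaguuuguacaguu
mmu-let-7i-5p: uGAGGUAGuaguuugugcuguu
mmu-miR-98-5p: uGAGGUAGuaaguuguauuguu
These 9 strands come from RefSeq (GRCm38.p6). These 9 differ from each other outside the seed. The seed is carried by 10 of the 11 mouse let-7 and miR-98 names listed there, and let-7j does not carry it. Of 1679 mature mouse microRNA names in that table, 11 have this seed, the others being let-7k and miR-1961. The reverse complement of the seed, which a matching site in a target would carry, is CUACCUC. Transcript sequences were not used here, so no site was located in any member.

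The 2 shRNAs are aimed at different stretches of Drosha, and their target sequences as the protocol gives them are shown because they separate the knockdown groups.
sh5 target: cctggaatatgtccacacttt
sh7 target: gtgtgcccattgaaataaa
Drosha mRNA was at 60.0 and 56.4 TPM in EV, 36.0 with sh5 and 8.39 and 14.9 with sh7. The levels did not overlap between groups, and the log2 difference from EV was -2.27 for sh7 (SE 0.266, adjusted p = 0.109) and -1.74 pooled (SE 0.534, adjusted p = 0.908), so by limma with Benjamini-Hochberg adjustment even the targeted mRNA did not pass the threshold of 0.05. TPM is an abundance of transcripts per length that sums to 1000000 in each library, so no read depth or counting error could be derived. EV replicate 1 stood apart from the other libraries in 12 interferon response genes, whose summed level was 239 TPM there, 2444 TPM in EV replicate 2, 1759 in sh5 and 4167 and 4068 in sh7. Of 10 mesangial markers 0 reached a mean of 1 TPM and Agtr1a and Rgs5 were listed at 0 throughout. Of 6 tubule epithelium markers 4 reached that mean, with a summed level of 230 to 296 TPM over the 5 libraries. The tubule markers Umod and Slc34a1 were listed at 0 throughout. That mean was reached by 1 of 6 podocyte markers (Podxl, mean 4.85 TPM) and 1 of 6 endothelium markers (Egfl7, mean 57.0 TPM). Among 6 leukocyte markers 2 reached that mean, Csf1r (mean 7.51 TPM) and Cd68 (mean 10.1 TPM). The leukocyte list stayed between 13.4 and 19.9 TPM in sum. Des, another of the mesangial markers, was at 1.05 to 1.14 TPM in EV and sh5. The mesangial markers were thus low or listed at 0 despite the label, and the cells are called MES-13 here.

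No let-7 target passed the test in any comparison of the Drosha knockdowns, and the members as a list lay close to the median of all tested genes. Of the 33 rows, 24 averaged 1 TPM or more and were tested, which covers 23 of the 32 symbols. By limma 0 of the 24 passed an adjusted p of 0.05 in any of the 4 comparisons (both shRNAs against EV, sh7 against EV, sh5 against EV, sh7 against sh5), where the share of all 12728 tested genes past that threshold was 0.0236%, 0.0157%, 0% and 0.0157%. In the stronger knockdown, sh7, the DNA-binding gene Arid3a and the cytokine gene Il6 were at the higher end of the list. The transcription factor genes E2f5 and Myc were at the lower end. Il6 averaged 0.777 TPM in EV and met the filter only with the shRNA libraries, so its place is not independent of the filter. In bulk RNA fewer cells of a type and less RNA per cell cannot be told apart.

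For sh7 against EV the median log2 difference of the 24 was 0.13, beside 0.09 over all tested genes and 0.08 over 2149 tested genes of like mean TPM (the 50 genes below and the 50 above each member). All log2 differences are on log2(TPM + 1), which understates the change of low genes. Of the 24, 15 were higher (62.5%, against 64.3% of all tested genes and 62.0% of genes of like mean TPM). At an unadjusted p under 0.05 there were 4 higher members (16.7%, background 10.3%) and 2 lower members (8.33%, background 4.15%). With median-of-ratios scaling these were 2 higher and 3 lower members, and over all tested genes 662 were higher and 1030 lower, against 1316 and 528 without it, so the balance of directions turned with the scaling. Both sh7 libraries lay above both EV libraries for 10 members (41.7%, background 35.8%) and below them for 3 (12.5%, background 14.3%). These shares are near the background, so they are no result about let-7 targets. Il6, which met the filter only with the shRNA libraries, is counted among the 10 and among the 4 higher members. With median-of-ratios scaling, which moved the median of all tested genes by -0.10, 5 members lay above and 4 below (backgrounds 22.1% and 25.4%). With quantile normalization, which moved that median by -0.11, 6 lay above and 3 below (backgrounds 21.3% and 25.3%). Without EV replicate 1 the count below was 9 (37.5%, against 22.1% of genes), without EV replicate 2 it was 6 (25%, against 31.7%), and without sh7 replicate 1 it was 7 (29.2%, against 22.8%).

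For sh5 against EV the median of the 24 was -0.06, beside -0.05 over all tested genes and -0.03 over genes of like mean TPM. It turned to 0.08 without EV replicate 2 and to 0.02 with median-of-ratios scaling. The sh5 library lay above both EV libraries for 7 members (29.2%, background 26.9%) and below them for 8 (33.3%, background 43.7%). At an unadjusted p under 0.05 there were 0 higher members (background 1.59%) and 2 lower members (8.33%, background 7.96%). With 1 library, sh5 has no replicate spread of its own, and that of EV and sh7 was used. With both shRNAs pooled, 13 of 24 members were higher (54.2%, background 55.7%), and the median was 0.07 beside 0.03 over all tested genes. An unadjusted p under 0.05 was found for 2 members, both higher, Slc20a1 and Il6 (8.33%, background 2.43% higher and 1.33% lower). Il6 met the filter only with the shRNA libraries. With median-of-ratios scaling 1 member was higher and 0 lower (259 and 245 of 12728 genes). With quantile normalization these were 1 and 1 (279 and 276 genes). All 3 shRNA libraries lay above both EV libraries for 4 members (16.7%, background 12%) and below them for 2 (8.33%, background 7.2%). The 4 were Ddx19a, Igf2bp1, Il6 and Slc20a1, and the 2 were E2f5 and Myc. Igf2bp1 was not among those above under median-of-ratios scaling. Of the 2 below, 0 stayed below under median-of-ratios scaling and Myc alone under quantile normalization. The count above was 9 without EV replicate 2 (37.5%, against 26.5% of genes) and 10 without the sh5 library (41.7%, against 35.8%). The count below was 7 without EV replicate 1 (29.2%, against 13.7%) and 5 without EV replicate 2 (20.8%, against 25.1%). The pooled median was -0.02 without EV replicate 1 and 0.13 without the sh5 library. The 3 comparisons with EV share the EV libraries and are not independent.

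**Figure D1:**
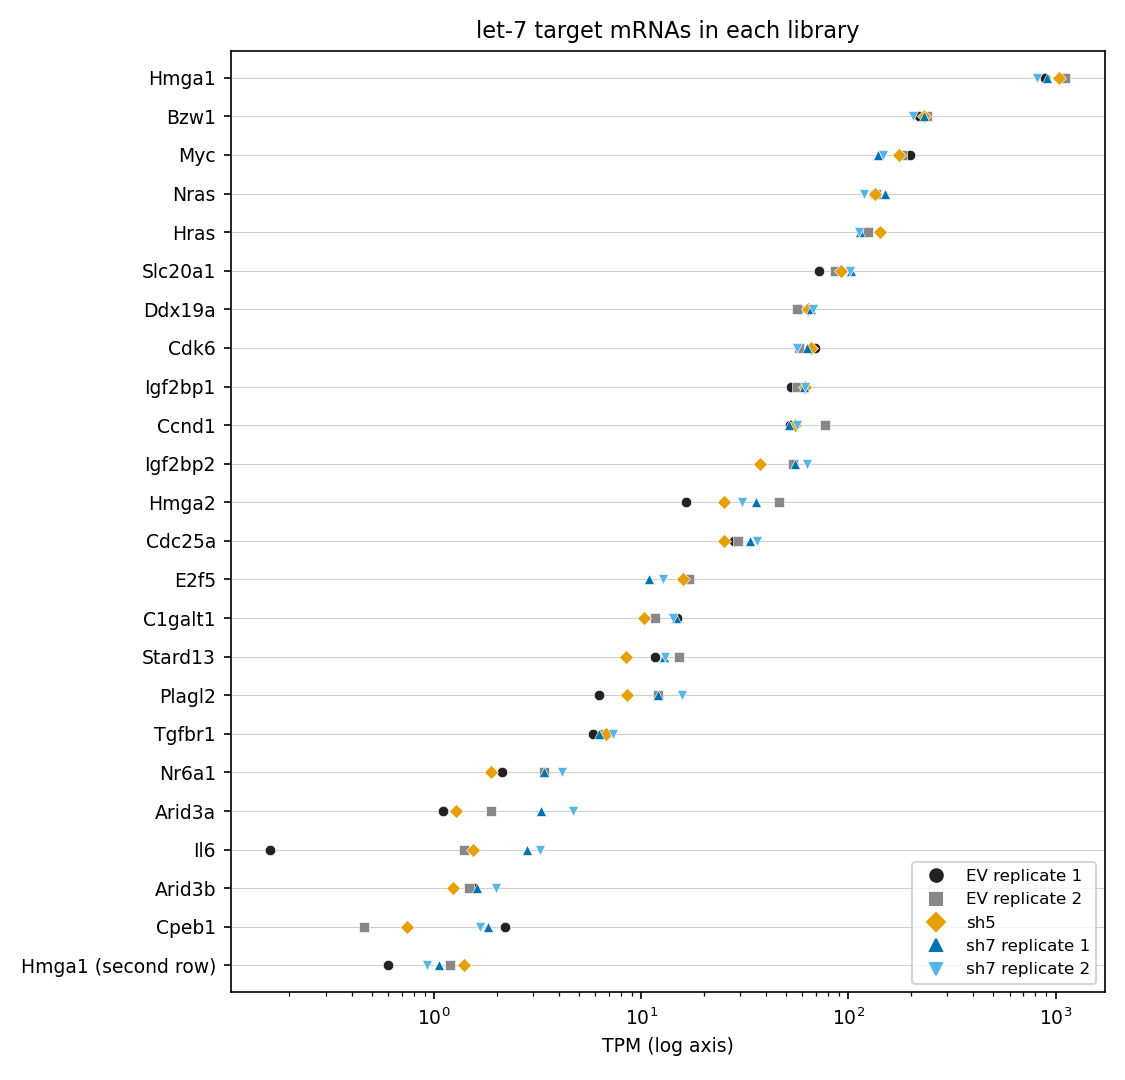
TPM (log axis) of the 24 tested rows of let-7 targets in each of the 5 libraries, 1 point per library, ordered by mean. Hmga1 was the most abundant at 818 to 1112 TPM, and the points of Il6, Cpeb1, Arid3a and Hmga2 spread most.

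The HMGA genes encode architectural chromatin proteins that bend AT-rich DNA, and Hmga2 is the classic let-7 target. Hmga2 was at 16.5 and 46.1 TPM in EV, 25.1 in sh5 and 36.0 and 30.7 in sh7. All 3 shRNA libraries lay between the EV libraries, which differed 2.80-fold from each other, and the means were 31.3 ± 21.0 TPM in EV and 33.3 ± 3.75 TPM in sh7 (SD, n = 2 each). The gap between the EV libraries was thus larger than any difference between groups. Hmga1 was at 888 and 1112 TPM in EV, 1041 in sh5 and 913 and 818 in sh7. Its groups overlapped, with sh7 replicate 2 the lowest of the 5 libraries. The second row under the symbol Hmga1 (ENSMUSG00000078249) is named Hmga1b in the reference table. It was at 0.595 and 1.19 TPM in EV, 1.39 in sh5 and 1.05 and 0.924 in sh7, and it can share reads with the abundant Hmga1, so its level is uncertain. This row and Il6 were the only tested rows whose EV mean was below 1 TPM, so they met the filter only with the shRNA libraries.

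Arid3a and Arid3b encode DNA-binding proteins with an AT-rich interaction domain. Arid3a was at 1.10 and 1.89 TPM in EV, 1.27 in sh5 and 3.28 and 4.71 in sh7. Both sh7 libraries were above the other 3 libraries, and the sh5 library lay between the EV libraries. The mean was 1.49 ± 0.560 TPM in EV and 3.99 ± 1.01 TPM in sh7 (SD, n = 2 each), 2.67 times as high. The log2 difference was 1.01 (SE 0.293) for sh7 against EV and 1.12 (SE 0.359) for sh7 against sh5, and neither passed by limma (adjusted p = 0.286 and 0.192). Arid3b was at 1.55 and 1.47 TPM in EV, 1.24 in sh5 and 1.60 and 1.98 in sh7. Its sh7 difference of 0.15 (SE 0.244, adjusted p = 0.795) turned to -0.06 under quantile normalization, and it was 0.09 with median-of-ratios scaling, 0.25 without sh7 replicate 1 and 0.05 without sh7 replicate 2.

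Among the transcription factors, Myc, a driver of growth and ribosome production, was at 199 and 181 TPM in EV, 176 in sh5 and 140 and 148 in sh7. In TPM its levels were ordered by group, EV above sh5 above sh7, with no overlap. Under median-of-ratios scaling both sh7 libraries stayed below EV, but the sh5 library did not. The mean was 190 ± 13.2 TPM in EV and 144 ± 5.64 TPM in sh7 (SD, n = 2 each). The log2 difference for sh7 was -0.40 (SE 0.0891) and did not pass by limma (adjusted p = 0.257). It was -0.30 with both shRNAs pooled (SE 0.127, adjusted p = 0.908) and -0.29 for sh7 against sh5 (SE 0.109, adjusted p = 0.236).

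E2f5, an E2F factor that acts mainly as a repressor, was at 17.0 TPM in both EV libraries, 15.9 in sh5 and 10.9 and 12.7 in sh7. The EV libraries were nearly equal and both sh7 libraries were lower. The log2 difference was -0.49 (SE 0.135) for sh7 and -0.36 (SE 0.189) with both shRNAs pooled, and neither passed by limma (adjusted p = 0.277 and 0.908). Plagl2, a zinc finger activator, was at 6.25 and 12.0 TPM in EV, 8.58 in sh5 and 12.1 and 15.7 in sh7. The lower sh7 library and the higher EV library were almost level. Its sh7 difference of 0.61 (SE 0.322, adjusted p = 0.433) was 0.19 without EV replicate 1 and 1.03 without EV replicate 2. Nr6a1, an orphan nuclear receptor of the early embryo and germ cells, was at 2.13 and 3.38 TPM in EV, 1.89 in sh5 and 3.39 and 4.14 in sh7. Its sh7 difference of 0.36 (SE 0.263, adjusted p = 0.541) was 0.12 without EV replicate 1 and 0.60 without EV replicate 2. For Plagl2 and Nr6a1 both sh7 libraries thus stood clear of EV replicate 1, and the lower of them was close to EV replicate 2. Zfp583, a zinc finger gene, was listed at 0 in all 5 libraries.

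The RNA-binding members held several of the family's best-known embryonic genes, and of those Lin28b, Igf2bp3 and Trim71 averaged below 1 TPM. Lin28b, whose protein blocks let-7 maturation, lay between 0.0376 and 0.177 TPM. Igf2bp3 lay between 0.0669 and 0.723 TPM with its highest value in sh5, and Trim71, a ubiquitin ligase and RNA-binding protein of stem cells, between 0.476 and 1.12 TPM with its highest value in EV replicate 1. These 3 were below the filter. Both other Igf2bp genes, whose proteins bind and protect messages such as Myc mRNA, were well expressed. Igf2bp1 was at 53.0 and 56.2 TPM in EV, 61.4 in sh5 and 61.2 and 61.5 in sh7. All 3 shRNA libraries lay close together and above EV, with a log2 difference of 0.17 both for sh7 (SE 0.0876, adjusted p = 0.429 by limma) and pooled (SE 0.0979, adjusted p = 0.908). The sh7 difference was 0.06 with median-of-ratios scaling and 0.09 with quantile normalization. Igf2bp2 was at 53.8 and 54.1 TPM in EV, 37.4 in sh5 and 55.4 and 63.4 in sh7. The sh5 library was the lowest, and the sh7 libraries were slightly above EV. The log2 difference was -0.52 for sh5 (SE 0.129, adjusted p = 0.477), 0.13 for sh7 (SE 0.105, adjusted p = 0.570) and 0.65 for sh7 against sh5 (SE 0.129, adjusted p = 0.131), none past the threshold by limma. The sh7 difference was 0.04 without sh7 replicate 2 and 0.23 without sh7 replicate 1.

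Ddx19a, an RNA helicase related to the mRNA export factor Ddx19b, was at 57.5 and 56.4 TPM in EV, 64.1 in sh5 and 65.7 and 67.7 in sh7. The groups did not overlap and the shift was small, 0.22 for sh7 (SE 0.0840, adjusted p = 0.340) and 0.21 pooled (SE 0.0967, adjusted p = 0.908). Bzw1, a regulator of translation initiation, was at 220 and 240 TPM in EV, 232 in sh5 and 231 and 205 in sh7, with overlapping groups. Cpeb1, which controls poly(A) tail length and translation, was at 2.20 and 0.457 TPM in EV, 0.742 in sh5 and 1.81 and 1.66 in sh7. The EV libraries held both its highest and its lowest value.

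Among the cell cycle members, the phosphatase gene Cdc25a, which activates cyclin-dependent kinases, was at 27.9 and 29.4 TPM in EV, 25.0 in sh5 and 33.4 and 36.1 in sh7. The sh7 libraries were the highest and the sh5 library the lowest. Its log2 difference was 0.27 for sh7 (SE 0.106, adjusted p = 0.348) and 0.46 for sh7 against sh5 (SE 0.129, adjusted p = 0.167), not past the threshold by limma. Ccnd1, which encodes cyclin D1, was at 52.3 and 77.4 TPM in EV, 55.3 in sh5 and 51.5 and 56.6 in sh7, so that EV replicate 2 alone was high. Cdk6, the kinase that D cyclins activate, was at 68.7 and 57.7 TPM in EV, 65.9 in sh5 and 62.9 and 56.2 in sh7, with overlapping groups. Ccnd2, which encodes cyclin D2, was below the filter at 0.0990 to 0.594 TPM, and its highest value was in EV replicate 2.

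The Ras genes encode small GTPases that pass on growth signals. Nras was at 132 and 136 TPM in EV, 134 in sh5 and 149 and 119 in sh7, where the 2 sh7 libraries held the highest and the lowest value. Hras was at 121 and 125 TPM in EV, 142 in sh5 and 114 and 112 in sh7. The sh5 library was above EV and both sh7 libraries were below it. The log2 difference of Hras was -0.12 for sh7 against EV (SE 0.0763, adjusted p = 0.492) and -0.33 for sh7 against sh5 (SE 0.0934, adjusted p = 0.167), and it did not pass by limma.

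Il6, the gene of the inflammatory cytokine interleukin 6, had the largest sh7 difference of the tested members. Its EV mean was below 1 TPM, so it met the filter only with the shRNA libraries, where it was high. It was at 0.162 and 1.39 TPM in EV, 1.53 in sh5 and 2.82 and 3.24 in sh7. The shRNA libraries were above EV, but EV replicate 2 and sh5 were nearly level and EV replicate 1 was far below the others. The mean was 0.777 ± 0.870 TPM in EV and 3.03 ± 0.294 TPM in sh7 (SD, n = 2 each). The log2 difference was 1.27 for sh7 (SE 0.411, adjusted p = 0.311) and 1.05 pooled (SE 0.411, adjusted p = 0.908), neither past the threshold by limma. At this low level the pseudocount sets the size, and with 0.1 TPM in place of 1 they were 2.32 and 2.01. With a pseudocount of 1 TPM and without EV replicate 1 they were 0.75 and 0.53, and without EV replicate 2 they were 1.79 and 1.57. The summed interferon response genes were also lowest in EV replicate 1 and highest in sh7. Unlike Il6, their sum was lower in sh5 (1759 TPM) than in EV replicate 2 (2444 TPM). Their part in the Il6 values was not tested.

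The receptor gene Tgfbr1, the type I receptor of TGF-beta, was at 5.85 and 6.63 TPM in EV, 6.74 in sh5 and 6.26 and 7.28 in sh7, with overlapping groups. Acvr1c, a type I receptor for activins and Nodal, was listed at 0 in the shRNA libraries and at 0.0160 and 0.00732 TPM in EV. Prtg, a receptor-like protein of the embryo, lay between 0.0293 and 0.183 TPM. These 2 genes were below the filter.

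Slc20a1, a phosphate transporter, was at 71.8 and 86.1 TPM in EV, 92.4 in sh5 and 103 and 102 in sh7. In TPM its levels were ordered by group, with EV lowest and sh7 highest and no overlap. Median-of-ratios scaling divides sh5 by 0.933 and sh7 by 1.06 and 1.07. Under it the shRNA libraries stayed above EV, but sh7 was no longer above sh5. The mean was 78.9 ± 10.1 TPM in EV and 103 ± 0.581 TPM in sh7 (SD, n = 2 each). The log2 difference was 0.38 for sh7 (SE 0.114, adjusted p = 0.294) and 0.33 pooled (SE 0.120, adjusted p = 0.908) by limma. Without EV replicate 1 these were 0.25 and 0.20. Stard13, which encodes a GTPase-activating protein, was at 11.7 and 15.3 TPM in EV, 8.48 in sh5 and 12.9 and 13.0 in sh7. Its sh5 library alone was low, with a log2 difference of -0.60 for sh5 (SE 0.209, adjusted p = 0.514) and 0.56 for sh7 against sh5 (SE 0.209, adjusted p = 0.230). C1galt1, the enzyme that builds core 1 O-glycans, was at 14.8 and 11.6 TPM in EV, 10.3 in sh5 and 14.7 and 14.2 in sh7. Its sh7 values lay between the EV values. Fign, an ATPase that severs microtubules, lay between 0 and 0.0182 TPM, and Gatm, the first enzyme of creatine synthesis, reached 0.0310 and 0.0318 TPM in sh7 and was listed at 0 elsewhere. Both were below the filter, and 9 symbols in all were.

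**Figure D2:**
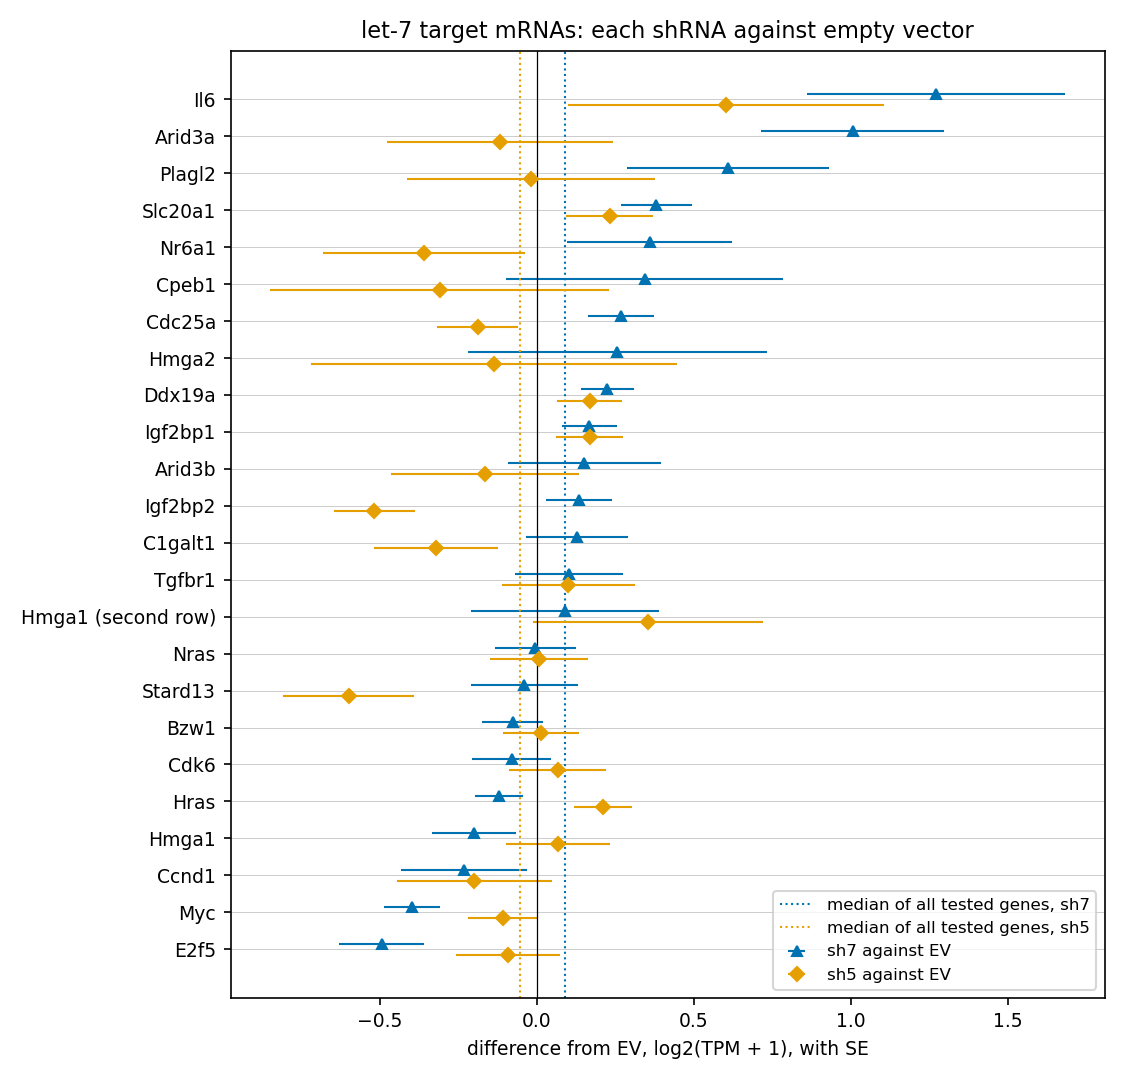
Difference from EV on log2(TPM + 1), with SE from limma, for sh7 (triangles) and sh5 (diamonds) in the 24 tested rows. Dotted lines are the medians of all 12728 tested genes, 0.09 for sh7 and -0.05 for sh5, and members lie on both sides of them, from -0.49 for E2f5 to 1.27 for Il6 in sh7.

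The knockdowns were also compared with each other, since Drosha mRNA was lower in sh7 than in sh5. Of the 24 members 14 were higher in sh7 (58.3%, background 68%), and the median difference was 0.10 beside 0.16 over all tested genes and 0.13 over genes of like mean TPM. Scaling moved the median of all tested genes by -0.17 (median of ratios) and -0.19 (quantile). The members' median then was -0.09 and -0.02. At an unadjusted p under 0.05 there were 4 higher members, Arid3a, Cdc25a, Igf2bp2 and Stard13 (16.7%, background 17.1%), and 2 lower members, Hras and Myc (8.33%, background 3.56%). With median-of-ratios scaling there were 2 higher and 3 lower members, and 1099 higher and 1405 lower genes against 2179 and 453 without it. The smallest adjusted p was 0.131, for Igf2bp2. No member was shown to differ between the constructs. Median-of-ratios scaling moved 3 of these differences by over 1.5 times, to 0.27 for Cdc25a, -0.52 for Hras and -0.48 for Myc, and quantile normalization moved Cdc25a to 0.24 and Stard13 to 0.27. In sh7 against EV median-of-ratios scaling gave 0.17 for Cdc25a, 0.12 for Ddx19a, -0.22 for Hras and 0.03 for Igf2bp2, and quantile normalization gave 0.16 for Cdc25a, 0.05 for Igf2bp2 and 0.17 for Nr6a1.

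The EV libraries differed from each other by as much as from sh7 for many members. The absolute log2 gap between them had a median of 0.25 over the 24 members and 0.18 over all tested genes, and the gap between the sh7 libraries had a median of 0.15 and 0.14. For 13 members (54.2%, background 51.5%) the gap between the EV libraries was larger than the difference between sh7 and EV, Hmga2, Ccnd1, Cpeb1 and Plagl2 among them. EV replicate 1 was below EV replicate 2 for 17 of the 24 members (70.8%, background 42.9%) and was the lowest of the 5 libraries for 8 (33.3%, background 22%). The sh7 difference was larger than the gap between the EV libraries for E2f5, Arid3a, Myc, Slc20a1 and Il6. It was also larger for Ddx19a, Cdc25a, Igf2bp1, Igf2bp2, Arid3b and Hras.

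**Figure D3:**
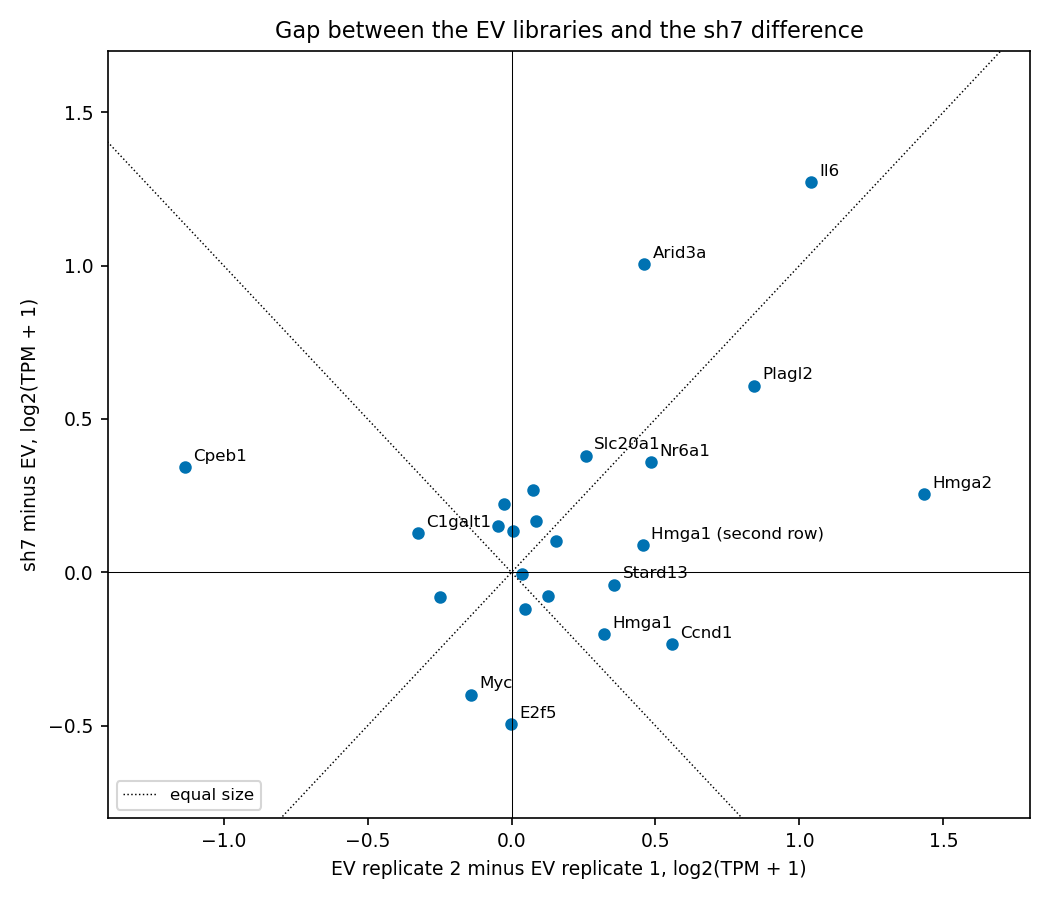
Each point is a tested let-7 target, with EV replicate 2 minus EV replicate 1 on the horizontal axis and sh7 minus EV on the vertical axis, both on log2(TPM + 1). Points between the dotted lines and the horizontal axis, 13 of 24, have a larger gap between EV libraries than difference in sh7. Both axes use the EV libraries.

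The hairpin rows of the let-7 loci were listed at 0 with 1 exception, and a 0 in these short rows is no measure of transcription of the loci. Of 5 host transcripts looked up, Wdr82, Huwe1 and Mir100hg were above 1 TPM in every library. Mir99ahg lay between 0 and 0.156 TPM, and Mirlet7bhg had no row in the expression table. Of 12 let-7 and miR-98 hairpin loci in the table, 11 were listed at 0 in all libraries. The other, Mirlet7g, had 1.62 TPM in both sh7 libraries and 0 in the other 3, below the filter and with no fold given. Its hairpin, which lies within the gene Wdr82 in the RefSeq table, is shown with the mature 5p strand in capitals (GRCm38.p6, plus strand, chr9:106178840-106178927).
Mirlet7g hairpin: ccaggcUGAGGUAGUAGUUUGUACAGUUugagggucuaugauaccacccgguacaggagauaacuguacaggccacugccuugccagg
The seed printed above is bases 2 to 8 of that strand. Wdr82, which encodes a subunit of a histone methyltransferase complex, was at 63.8 and 55.1 TPM in EV, 48.7 in sh5 and 61.1 and 64.8 in sh7, so the sh7 values did not stand clear of EV, and sh7 differed from sh5 by 0.36 (SE 0.134, adjusted p = 0.229 by limma). Mir100hg, the host of let-7a-2, was at 1.36 and 3.79 TPM in EV, 1.34 in sh5 and 9.36 and 6.84 in sh7. Its sh7 libraries were the highest, with a log2 difference of 1.42 (SE 0.399, adjusted p = 0.278 by limma) from EV and 1.95 (SE 0.488, adjusted p = 0.150) from sh5. Huwe1, the ubiquitin ligase gene that hosts let-7f-2 and miR-98, was at 104 TPM in both EV libraries, 56.8 in sh5 and 79.6 and 107 in sh7. The sh5 library was the lowest (log2 difference -0.87, SE 0.193, adjusted p = 0.473 by limma).

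Of 22 genes for let-7 maturation and silencing, 20 were tested. Lin28a was listed at 0 throughout, so with Lin28b both Lin28 genes were near 0 in MES-13 cells. Dgcr8 alone of the 20 passed by limma, in sh7 against EV and in sh7 against sh5, at 26.7 and 26.3 TPM in EV, 24.3 in sh5 and 171 and 161 in sh7 (log2 difference 2.60 against EV, SE 0.0887, adjusted p = 0.0153, and 2.72 against sh5, SE 0.109, adjusted p = 0.0198). The difference from EV was not past the threshold without EV replicate 1 (adjusted p = 0.114) or without either sh7 library (0.525 without replicate 1 and 0.484 without replicate 2), where it stayed between 2.56 and 2.64. The difference from sh5 was not past it without either sh7 library (0.417 and 0.577) or with eBayes without trend (0.0529). Both sh7 libraries lay above EV for 10 of the 20 (50%, background 35.8%) and below for 4 (20%, background 14.3%). The sh5 library lay below EV for 15 (75%, background 43.7%). Drosha, which both shRNAs target, is counted among the 4 and among the 15. Tut4 and Tut7 encode uridyl transferases that mark precursor let-7, with Lin28 for decay and without it for trimming. Tut4 was at 16.3 and 14.7 TPM in EV, 8.54 in sh5 and 19.2 and 19.1 in sh7, and Tut7 at 34.6 and 34.0 TPM, 23.7 TPM and 38.0 and 41.2 TPM. For both genes sh5 was the lowest library and sh7 the highest, with sh7 against sh5 at 1.08 (SE 0.154, adjusted p = 0.118) and 0.72 (SE 0.124, adjusted p = 0.126), not past the threshold by limma. Tnrc6a, which encodes a GW182 protein that carries out silencing with Argonaute, was at 16.8 and 27.5 TPM in EV, 18.6 in sh5 and 36.0 and 41.4 in sh7. Ago1, an Argonaute gene, went the other way, at 12.3 and 11.2 TPM in EV, 8.93 in sh5 and 8.17 and 9.42 in sh7. The log2 differences for sh7 were 0.81 (SE 0.247, adjusted p = 0.296) and -0.38 (SE 0.152, adjusted p = 0.353) by limma.

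The other genes of this list that met the same condition did not pass by limma. Ddx17, a helicase of the Drosha complex, differed by 0.30 in sh7 (SE 0.0766, adjusted p = 0.274), and the Dicer partner Tarbp2 by 0.31 pooled (SE 0.115, adjusted p = 0.908). Khsrp, a KH-domain protein that promotes let-7 processing, differed by 0.54 between sh7 and sh5 (SE 0.106, adjusted p = 0.131), and Tnrc6c, a relative of Tnrc6a, by 0.85 (SE 0.205, adjusted p = 0.143). Trim25, an interferon-induced ubiquitin ligase, was at 36.8 and 99.1 TPM in EV, 78.2 in sh5 and 116 and 123 in sh7, with EV replicate 1 far below the rest as in the interferon list (sh7 difference 0.97, SE 0.459, adjusted p = 0.399). Dis3l2, the exonuclease that degrades uridylated precursors, lay above EV in sh7 (0.19, SE 0.137, adjusted p = 0.536), and Ago3 (-0.25, SE 0.201, adjusted p = 0.574) and the poly(A) polymerase gene Tent2 (-0.13, SE 0.125, adjusted p = 0.647) lay below it. In sh5 the log2 differences of Ddx5, Ago2 and Tnrc6b were -0.54, -0.57 and -0.57 (adjusted p = 0.514, 0.520 and 0.501).

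**Figure D4:**
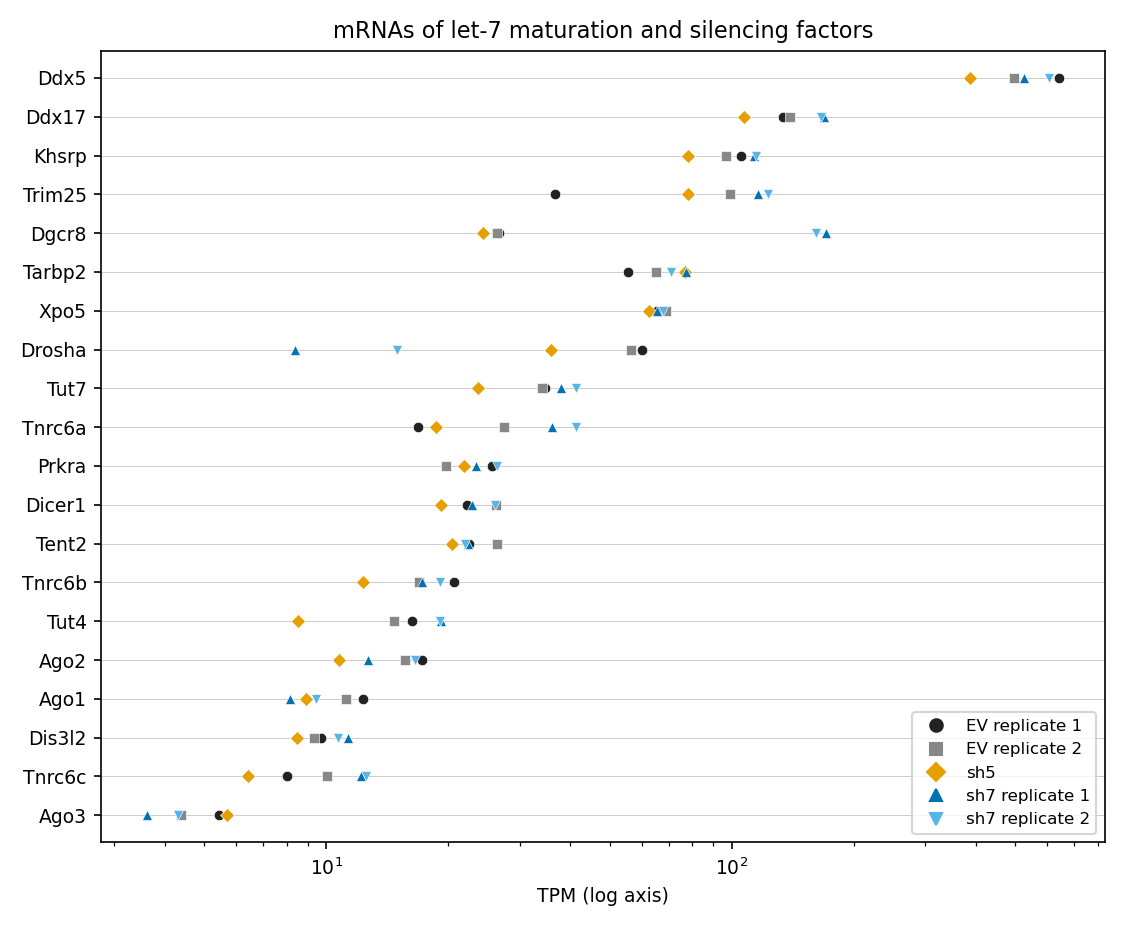
TPM (log axis) of the 20 tested genes of let-7 maturation and silencing in each library, 1 point per library, ordered by mean. Drosha is lowest in the sh7 libraries, Dgcr8 is at 171 and 161 TPM there against 24.3 to 26.7 TPM elsewhere, and sh5 is the lowest library for genes such as Tut4 and Tut7.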

How the data were processed

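The authors deposited TPM for 55357 Ensembl genes in 5 mRNA libraries. For quantification, kallisto 0.48.0 appears per the submitters' processing notes. Which build and annotation the table rests on is not given in the sources used here. TPM keep no read depth, so no counting error or detection limit was derived, and a gene at 0 is given as listed at 0. Gene symbols are those of the deposited table.

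limma 3.58.1 under R 4.3.3 (linear models, moderated with a mean-variance trend, two-sided) was applied to log2(TPM + 1) of the 12728 genes averaging 1 TPM or more, with Benjamini-Hochberg adjustment over all of them and 0.05 as the threshold. The pooled comparison used a model with 2 arms. The others came from a model with 3 groups, where sh5, with 1 library, took its spread from the other groups. Before use, this fit was tested on simulated data (200 changed genes). The labels do not say whether replicates are separate cultures, so p-values reflect only how these samples spread, possibly for technical reasons. The replicate numbers in the labels were not taken as pairs.

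The members and lists were chosen with earlier results of these data known. All members are named. limma results are given for members whose sh7 or pooled shRNA libraries did not overlap EV, or with an unadjusted p under 0.05, and the host and maturation genes are named by the same rule. Lists were described by counts and medians, with no set test. Sequences came from RefSeq (GRCm38.p6) and, for the shRNAs, from the labels' protocols. Alternatives were other pseudocounts, filters, scalings, eBayes settings, a replicate block and each library left out. The counts of separated libraries under scaling and without a library were added after seeing the data.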

Additional observations from a re-analysis of the deposited data

How the results depend on the processing

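Under the alternatives tried, 0 let-7 targets passed the threshold in any comparison (smallest adjusted p 0.0708). Among the single let-7 targets 369 of the recomputed log2 differences kept their direction and their side of the threshold. The 1 that reversed was Arid3b in sh7, to -0.0594 under quantile normalization. No target was past the threshold in the main fit, and the eBayes settings cannot change a direction. Sizes moved more, as for Plagl2 in sh7, from 0.61 to 0.19 without EV replicate 1. The members' median kept within the spread between replicates (an SD of 0.0550) in 39 of 55 recomputations. The 39 include settings that cannot move it, namely the eBayes settings and fits without a library outside the comparison. The median moved, for pooled, sh7 and sh7 against sh5, to 0.00925, 0.0692 and 0.0446 with no filter (all 33 rows). With a filter at 5 TPM it moved to -0.0159, 0.0483 and 0.00051. Quantile normalization gave -0.0370, -0.0392 and -0.0154. Median-of-ratios scaling gave 0.0346 for sh7, 0.0231 for sh5 and -0.0852 for sh7 against sh5, and the mean of both shRNA effects gave 0.00854 pooled. With libraries left out in turn the medians ranged from -0.0208 to 0.13 (pooled), 0.08 to 0.16 (sh7), -0.0723 to 0.0774 (sh5) and 0.10 to 0.15 (sh7 against sh5).

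The counts of all genes past the threshold, 3 pooled, 2 for sh7, 0 for sh5 and 2 for sh7 against sh5, were 15, 134, 52 and 154 with no filter. At 5 TPM they were 1 pooled and 4 for sh7. For sh7 the count was 1 with a pseudocount of 0.1 or 0.5 TPM or either scaling, 19 without trend and 7 with robust estimation, and for sh7 against sh5 it was 0 without trend and 4 with robust estimation. It was 0 pooled for the mean of both shRNA effects. With the replicate block 0 genes passed in any of the 4 comparisons, Dgcr8 in sh7 among those lost (adjusted p = 0.0609 against EV and 0.0967 against sh5), and no let-7 target changed its call. Same-numbered EV and sh7 libraries did not deviate together (r = -0.02 across 12728 genes). With libraries left out in turn the counts ranged from 0 to 3 (pooled), 0 to 281 (sh7), 0 to 59 (sh5) and 0 to 4 (sh7 against sh5).

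The members above EV in every sh7 library numbered 5 under median-of-ratios scaling and 6 under quantile normalization, instead of 10, and 11 to 14 with libraries left out (47.0% to 54.9% of all genes). Those below numbered 4 to 9 with libraries left out (22.1% to 31.7% of genes), instead of 3. With all shRNA libraries, 4 to 10 were above and 2 to 7 below with libraries left out (13.9% to 35.8% and 9.95% to 25.1% of genes), and 0 and 1 were below under the scalings (9.90% and 10.8% of genes). By definition, leaving a library out can only keep or raise such counts, for members and for all genes. Other causes of these changes were not tested. TPM carry no depth, so what depth limits could not be assessed.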
